A study of Mus musculus with 4 samples.

Results

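The core of the Hippo pathway was followed here as 10 genes in single-cell RNA sequencing (scRNA-seq) of mouse long bone. They are Lats1 and Lats2, Stk3 and Stk4, Sav1, Mob1a and Mob1b, Nf2, Yap1 and Wwtr1. They were taken by symbol from the 53703 features of the count tables, and all 10 were found and measured in every cell type. The series holds 2 libraries of Lats2iECKO mutants and 2 of controls, at postnatal week 12. The labels call the treatment of mutants a conditional Lats2 KO and that of controls untreated. By the study's methods, mutants carried floxed Lats2 and the Cdh5(PAC)-CreERT2 transgene, whose Cdh5 promoter restricts the tamoxifen-dependent recombinase to endothelial cells (ECs). Controls were Cre-negative littermates that had received tamoxifen as well. The methods also describe a Cdh5(PAC) reporter of a membrane tomato and a nuclear GFP, bred into mutants and matching controls. They do not say whether the sequenced mice carried it. The strain was C57BL/6, and both sexes were used. Stromal cells came from the metaphysis of femur and tibia after depletion of blood-lineage, CD45+ and CD117+ cells. The sources used here do not say whether a library held 1 mouse or several pooled mice, nor which Lats2 exons were floxed. Each p-value of a genotype effect within a type or subset therefore measures the spread between 2 libraries of a group. P-values for differences between types or subsets come from fits with the library as a block, on sums from the same libraries.

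In the Hippo pathway, the kinases encoded by Stk3 and Stk4 (MST2 and MST1) bind the scaffold SAV1 and phosphorylate the kinases LATS1 and LATS2 together with their coactivators MOB1A and MOB1B. NF2 (merlin) brings the LATS kinases to the membrane. Active LATS kinases phosphorylate the transcriptional coactivators YAP1 and TAZ, the product of Wwtr1, which then stay out of the nucleus and are degraded. When the kinases are off, YAP1 and TAZ enter the nucleus, bind the TEAD factors and switch on genes such as Ccn1 and Ccn2. In bone, YAP1 and TAZ are studied in vessels, in the mesenchymal lineage and in cartilage.

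Members were read out in 5 cell types, gated on 10 marker genes each in barcodes with at least 1000 UMIs and 800 features. Barcodes also had to have a mitochondrial share of up to 15%, a hemoglobin share of up to 5% and a complexity of at least 0.8. Per library, 520 to 811 ECs, 602 to 1955 reticular cells (the CXCL12-rich stroma of the marrow), 180 to 792 osteoblasts (OBs), 1618 to 2601 chondrocytes (CHOs) and 256 to 434 mural cells passed. All 10 markers of each type reached 10 counts per 1000000 UMIs (CPM) in that type in every library. The cells were gated on these same markers, so this does not test their identity. The libraries held 69636600 and 78953446 UMIs in mutants and 83453507 and 85899079 in controls. Of 19506 barcodes in the 5 types, 39 (0.20%) occurred in more than 1 library. Free RNA was estimated at 1.32% to 4.61% of a type's UMIs. Markers of other types also moved with genotype within the gates. The summed OB markers stood at 146 to 170 CPM in mutant ECs and 469 to 553 CPM in control ECs, and at 2608 to 2748 against 4032 to 4153 CPM in reticular cells. In mural cells, reticular markers summed to 2421 to 2571 CPM in mutants and 1214 to 1229.5 CPM in controls, fibroblast markers to 527 to 551 against 196 to 230 CPM, leukocyte markers to 134 to 157 against 15.7 to 16.8 CPM, and OB markers to 221 to 252 against 431 to 513 CPM. Leukocyte markers in ECs summed to 50.1 to 70.2 CPM in mutants and 144 to 159.9 CPM in controls. The markers of each gate itself were lower in mutants in all 5 types. Relative to controls the fall was largest in mural cells, where they summed to 17664 to 17926 CPM against 32806 to 35110.3 CPM. Ribosomal-protein genes took 10.3% and 10.6% of the UMIs of mutant ECs and 7.65% and 8.11% of those of control ECs, and a higher share in mutants in each of the other 4 types. The part of these differences in the results below was not tested.

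A level below is the summed UMI count of a gene in all cells of 1 type in 1 library, scaled to CPM with TMM factors fitted over the 20 sums of 5 types and 4 libraries. Values are in the order mutant replicate 1, mutant replicate 2, control replicate 1 and control replicate 2. Fold changes are log2 values of mutants over controls from a fit in each cell type, and a gene is called at an adjusted p of 0.05 or less over all genes tested there. A 2-sided exact permutation test of 2 libraries against 2 cannot give a p under 0.333. Lower counts of a transcript in a sum can come from fewer molecules per cell or from fewer cells holding it, and the sums cannot tell these apart.

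The mRNA of Lats2, the deleted kinase gene, was lower in mutant ECs and past the threshold in no other cell type, except in reticular cells when mutant replicate 2 was left out. In ECs it stood at 78.1 and 85.7 CPM in mutants and at 111 and 100.3 CPM in controls, with means of 81.9 ± 5.36 and 106 ± 7.88 (SD, n = 2). Both mutant libraries lay below both control libraries, at 77.4% of the control mean. The log2 fold change was −0.37 (SE 0.0869, adjusted p = 0.00994 by edgeR's quasi-likelihood test). The call was lost without control replicate 1 (−0.31, adjusted p = 0.0508) and after correction for gene span (−0.23, adjusted p = 0.0535), and held under 14 of 16 alternatives. The transgene itself, Cre-ERT2, gave 46.1 and 44.9 CPM in the ECs of the mutant libraries and 0.576 and 0.758 CPM in those of controls, so the libraries matched their labels. The counts take in exons and introns of the whole gene and 3′ ends of transcripts. A transcript that lacks the floxed exons could therefore still be counted, and the level does not measure recombination. Whether such a transcript is present was not tested.

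Outside the endothelium, reticular cells had 61.0 and 69.98 CPM of Lats2 in mutants and 75.1 and 75.8 in controls, a log2 fold change of −0.18 (SE 0.0756, adjusted p = 0.112). The groups did not overlap there, but the difference missed the threshold, which it passed without mutant replicate 2 (−0.28, adjusted p = 0.0305). It was −0.10 without mutant replicate 1 and −0.09 after correction for gene span. OBs had 66.3 and 50.05 against 64.9 and 60.6 CPM (−0.04, adjusted p = 0.898) and mural cells 52.6 and 55.6 against 59.4 and 56.7 CPM (−0.12, adjusted p = 0.555). CHOs had 45.6 and 49.0 CPM in mutants and 46.0 and 46.8 CPM in controls, and their log2 fold change was 0.01 (SE 0.0546, adjusted p = 0.880). The log2 fold change in ECs minus that in CHOs was −0.40 (adjusted p = 0.00639 for the difference between the types), in a test that called 21.5% of genes. Here and below, pairs of types or subsets were tested under the main setting only, without correction for gene span or a left-out library. The other pairs with ECs did not pass. ECs minus reticular cells gave −0.17 (adjusted p = 0.397), minus OBs −0.22 (adjusted p = 0.361) and minus mural cells −0.27 (adjusted p = 0.326). Minus the mean of the other 4 types, the log2 fold change in ECs was −0.26 (SE 0.0928), which missed the threshold (adjusted p = 0.0564).

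Lats2 (ENSMUSG00000021959) lies on the minus strand of chromosome 14, from 57926960 to 57995845 (GRCm39). A read-through gene model on the same strand, Gm49361 (ENSMUSG00000114942, from 57879534 to 57983560), covers part of it, and 27.3% of the nonzero entries of Lats2 were not whole numbers, as happens when reads are split between genes. Gm49361 alone stood at 27.3 and 29.8 CPM in mutant ECs and at 29.2 and 31.5 CPM in control ECs (log2 fold change −0.08, adjusted p = 0.572). The sum of both does not depend on how reads were split between them. It was 105.5 and 115 CPM in mutant ECs and 141 and 132 CPM in control ECs, a log2 fold change of −0.30 (SE 0.0788, adjusted p = 0.0163), and the difference from the other types became −0.30 (adjusted p = 0.0151). Outside ECs the sum was higher relative to controls than Lats2 alone. In reticular cells it was 87.5 and 108 CPM in mutants and 103 and 105 CPM in controls, which overlapped (−0.07, adjusted p = 0.614). In OBs it gave 0.16 (adjusted p = 0.364), and Gm49361 alone was called higher there, at 20.2 and 26.4 against 14.7 and 14.8 CPM (0.78, adjusted p = 0.0218). For the other members at most 1.44% of entries were not whole.

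Within the endothelium, Lats2 was also read in subsets set by arterial and sinusoidal markers. Arterial-like ECs held 107 and 117 CPM in mutants and 146 and 158 CPM in controls (log2 fold change −0.44, SE 0.109, adjusted p = 0.0129), with levels here scaled within the subset. The call was lost under DESeq2, without mutant replicate 1, without control replicate 2 and after correction for gene span. Their sum with Gm49361 changed by −0.33 and missed the threshold (adjusted p = 0.0551). Sinusoidal-like ECs held 85.4 and 96.1 CPM against 122 and 99.3 CPM, with no overlap, and did not pass (−0.28, SE 0.132, adjusted p = 0.149), with −0.13 without control replicate 1 and −0.42 without control replicate 2. ECs with neither marker set held 77.9 and 83.5 CPM against 135 and 101 CPM (−0.55, SE 0.22, adjusted p = 0.147), and −0.34 without control replicate 1. The effect in arterial-like and sinusoidal-like ECs was not shown to differ (−0.14, adjusted p = 0.803).

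**Figure D1:**
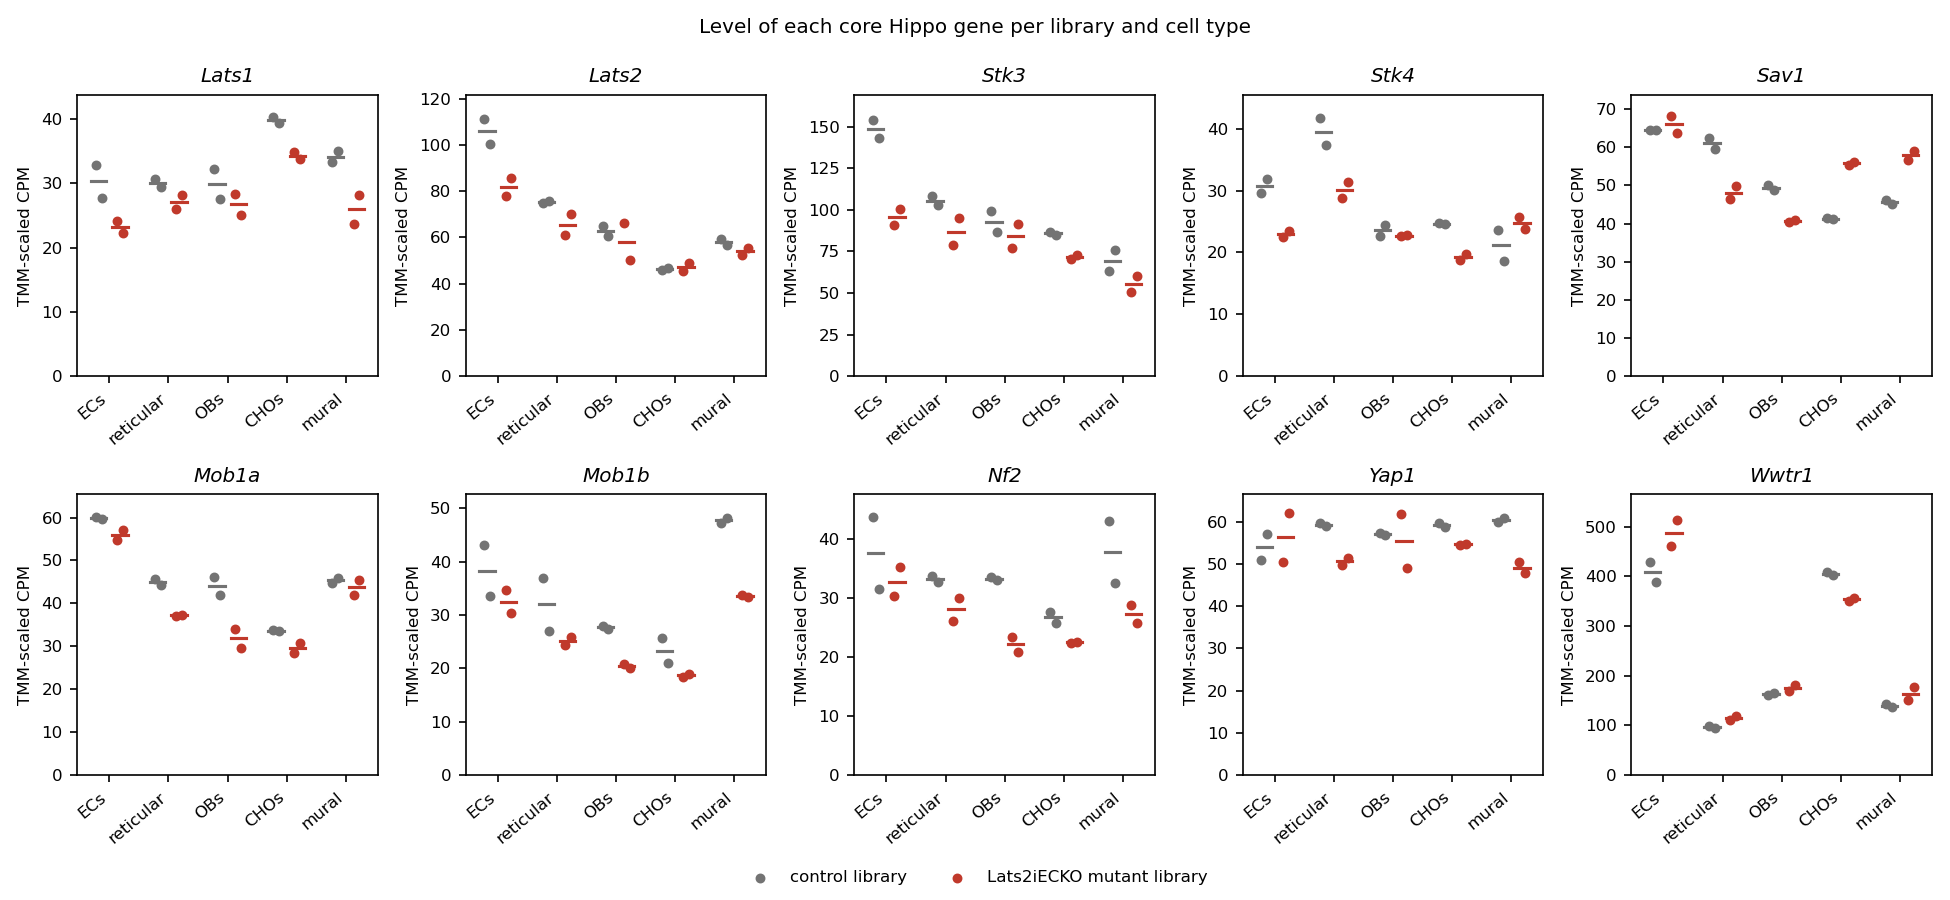
Level of each member (CPM, TMM-scaled, each panel with its own axis from 0) in the 5 cell types, with 1 point per library for mutants and controls and a bar at the mean of 2 libraries. Lats2 and Stk3 are lower in both mutant libraries than in both control libraries in ECs, Sav1 is higher in both mutant libraries in CHOs, and Wwtr1 is highest in ECs and CHOs.

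Most members that changed were lower in mutants, and the number depended on the cell type. In ECs 4 of 10 members were lower (Lats1, Lats2, Stk3 and Stk4, all kinases) and 1 was higher (Wwtr1), where 16.6% and 17.9% of all genes tested were called in those directions. Reticular cells had 4 lower (Stk3, Stk4, Sav1 and Mob1a; background 10.5%) and 1 higher (Wwtr1; background 12.4%). CHOs had 8 lower, all members but Lats2 and Sav1, against a background of 21.0%, and 1 higher (Sav1), against 21.2%. Mural cells had 2 lower (Mob1b and Nf2; background 13.7%) and 0 higher (background 15.7%), in sums that held more reticular, fibroblast and leukocyte markers and a lower sum of mural markers in mutants, as given above. OBs had 0 in either direction, where 6.86% of genes were called higher and 3.3% lower. These counts depend on the test. DESeq2 called 2 lower in ECs, 0 in reticular cells, 3 in CHOs and 0 in mural cells, and 1 higher in ECs, 0 in reticular cells and 1 in CHOs. The make-up of the gates moved with genotype as well. Cells with osteolineage markers were 246 of 602 and 318 of 749 reticular cells in mutants and 1044 of 1955 and 1060 of 1903 in controls, and hypertrophic-like cells 1553 of 2339 and 1701 of 2601 CHOs in mutants and 995 of 1618 and 997 of 1690 in controls. The part of this in the members' values was not tested.

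Counts of 0 do not show that the members were equal. In OBs, 3 members were lower and 1 higher at an unadjusted p under 0.05 in edgeR, and DESeq2 also called 0. In mural cells, 1 member was higher at that unadjusted p, and DESeq2 called 0 higher. The share of all genes at that unadjusted p or with DESeq2 is not given, so these counts are not set against a background. The median log2 fold change of the 10 members was −0.22 in ECs, −0.23 in reticular cells, −0.06 in OBs, −0.22 in CHOs and −0.22 in mural cells, while the median of all genes tested lay between −0.00 and 0.01 in each type. The values of mutants lay wholly below those of controls for 5 members in ECs (33.9% of all genes), 9 in reticular cells (31.5%), 4 in OBs (27.5%), 8 in CHOs (36.8%) and 6 in mural cells (31.9%). Neither the medians nor these shares of all genes were matched for gene span, and 6 members are in the longest of 4 span classes. The median of all genes in that class was −0.22 in ECs, −0.12 in reticular cells, −0.02 in OBs, −0.09 in CHOs and −0.13 in mural cells. In OBs the fitted fold changes sit 0.0974 (log2) above the ratio of the printed levels, as the median over genes, because the fit scales each type on its own; in the other types this shift is at most 0.0224.

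**Figure D2:**
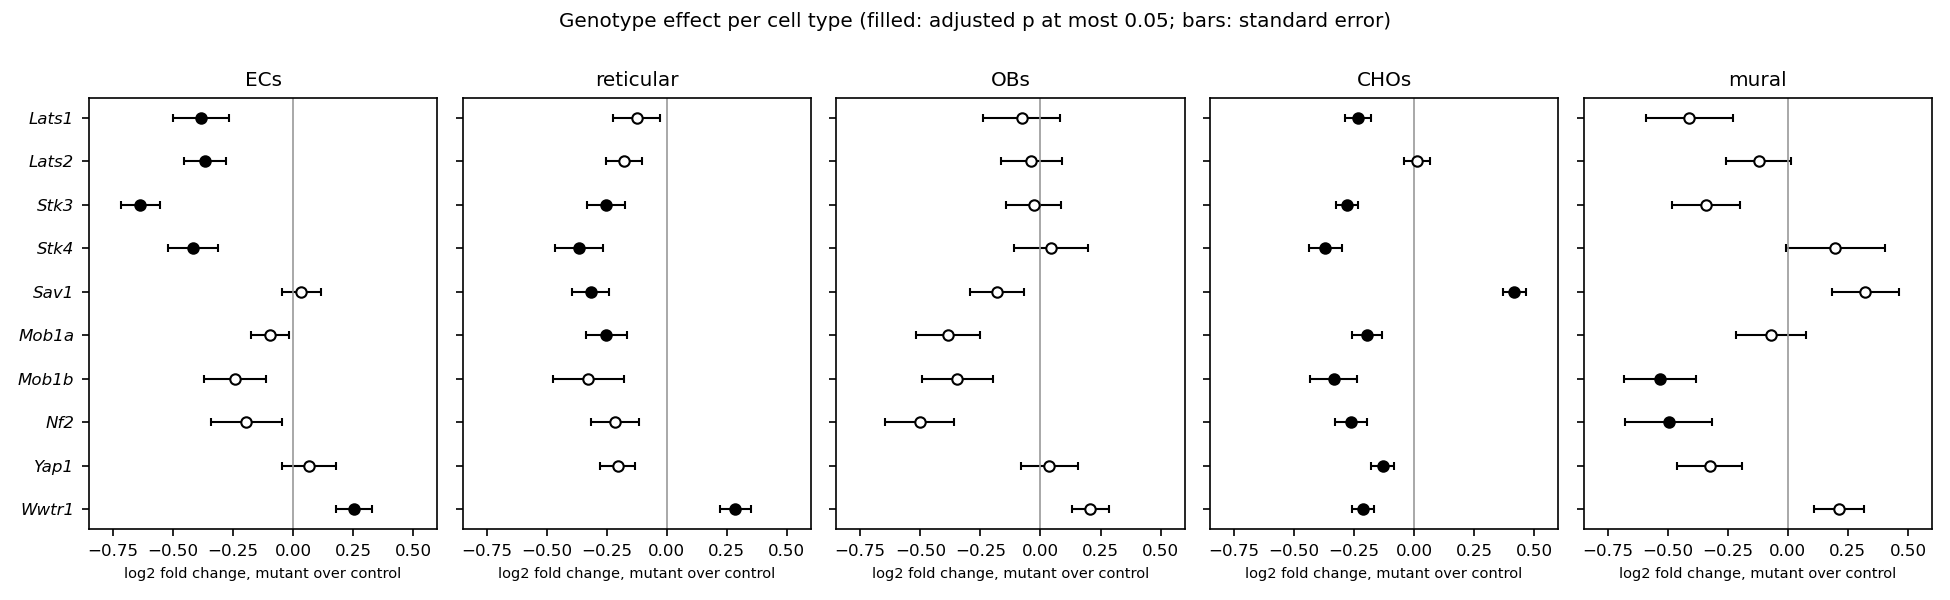
Log2 fold change of mutants over controls for the 10 members in the 5 cell types, with bars of ± 1 SE and filled points for an adjusted p of 0.05 or less. Stk3 in ECs (−0.64) lies farthest below 0 and Sav1 in CHOs (0.42) farthest above 0.

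The kinase gene Stk3 had the largest change of the members. Its level in ECs was 90.9 and 100.3 CPM in mutants against 154 and 144 CPM in controls, that is 64.2% of the control mean, and the groups stood well apart. The log2 fold change was −0.64 (SE 0.0809, adjusted p = 3.67e-04), and the call held under all 15 alternatives, where it lay between −0.71 and −0.33. The make-up of the ECs also moved with genotype: sinusoidal-like cells were 172 of 520 and 201 of 641 ECs in mutants and 396 of 811 and 389 of 798 in controls. The part of this in the EC value was not tested. CHOs had 70.2 and 72.9 against 86.8 and 85.1 CPM (−0.28, SE 0.0458, adjusted p = 0.00121), again held under all 15 alternatives, with −0.15 after correction for gene span. In reticular cells Stk3 stood at 78.7 and 95.0 against 108 and 103 CPM (−0.25, adjusted p = 0.0407), a call lost under 6 of 15 alternatives, among them the fit without mutant replicate 1 (−0.14) and the fit without control replicate 1; without mutant replicate 2 it was −0.40. OBs had 77.0 and 91.4 against 99.4 and 86.4 CPM (−0.03, adjusted p = 0.914) and mural cells 50.7 and 60.4 against 63.0 and 75.9 CPM (−0.34, adjusted p = 0.0848), and neither passed. In mural cells it passed without mutant replicate 2 (−0.47, adjusted p = 0.0417) and without control replicate 1 (−0.47, adjusted p = 0.0269), and was −0.21 without mutant replicate 1, −0.21 without control replicate 2 and −0.09 after correction for gene span. The 20% of cells filter and the loose gate also made this call.

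Stk3 was the one member whose genotype effect differed between ECs and the mean of the other 4 types, in a test that called 17.1% of all genes. The difference was −0.39 (SE 0.0840, adjusted p = 0.00238). It became −0.35 with an adjusted p of 0.0531 without mutant replicate 2, and −0.28 (adjusted p = 0.0454) after correction for gene span. By pairs of types, the log2 fold change in ECs differed from that in OBs by −0.51 (adjusted p = 0.00806), from that in reticular cells by −0.36 (adjusted p = 0.0203) and from that in CHOs by −0.38 (adjusted p = 0.00453). ECs minus mural cells gave −0.32 and did not pass (adjusted p = 0.181). These pairs were not corrected for gene span. The span class of Stk3 had a median of −0.22 in ECs and −0.02 in OBs over all genes. Sinusoidal-like ECs had 119 and 119 CPM in mutants and 208 and 202 CPM in controls (−0.78, SE 0.105, adjusted p = 7.48e-04). Arterial-like ECs had 98.1 and 116 against 142 and 131 CPM and missed the threshold (−0.35, adjusted p = 0.0571), which they passed without mutant replicate 2 (−0.48, adjusted p = 0.0260). Without mutant replicate 1 the value was −0.23, and after correction for gene span −0.13. The subsets were not shown to differ (0.45, adjusted p = 0.179) in a test that called 2.66% of genes.

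Stk4, the paralog of Stk3, was lower in 3 types. ECs had 22.4 and 23.5 CPM in mutants and 29.7 and 31.8 CPM in controls (−0.42, SE 0.105, adjusted p = 0.0133), with no overlap. This call was lost under DESeq2, without mutant replicate 1, without control replicate 2 and after correction for gene span. Reticular cells had 28.8 and 31.4 against 41.7 and 37.3 CPM (−0.37, SE 0.0997, adjusted p = 0.0200), lost under 6 of 15 alternatives, among them the fits without mutant replicate 1 and without control replicate 1. CHOs had 18.8 and 19.8 against 24.7 and 24.5 CPM (−0.37, SE 0.0675, adjusted p = 0.00231), held under all 15; with only the limits of 1000 UMIs and 800 features on barcodes it was −0.71. OBs had 22.7 and 22.7 against 22.7 and 24.4 CPM (0.05, adjusted p = 0.911) and mural cells 25.7 and 23.7 against 23.6 and 18.7 CPM (0.20, adjusted p = 0.527), and neither passed.

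Lats1, the other LATS kinase, was lower in ECs and CHOs, so no member of the LATS pair was called higher where Lats2 was lower. ECs had 24.2 and 22.3 CPM in mutants and 32.8 and 27.7 CPM in controls (−0.38, SE 0.118, adjusted p = 0.0321). The call was lost under DESeq2 and in the fits without mutant replicate 2 and without control replicate 1. CHOs had 34.8 and 33.8 against 40.4 and 39.4 CPM (−0.23, SE 0.0545, adjusted p = 0.00797), a call that DESeq2 did not make. Mural cells had 23.7 and 28.2 against 33.3 and 35.0 CPM, with no overlap, but did not pass (−0.41, adjusted p = 0.0988). Reticular cells had 26.0 and 28.2 against 30.7 and 29.3 CPM (−0.12, adjusted p = 0.3996), and OBs had 28.4 and 25.0 against 32.3 and 27.6 CPM (−0.08, adjusted p = 0.819), which overlapped.

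Sav1, the scaffold of the MST kinases, moved in opposite directions in 2 types. In CHOs it rose from 41.4 and 41.2 CPM in controls to 55.5 and 56.1 CPM in mutants, 135% of the control mean (0.42, SE 0.0485, adjusted p = 1.67e-04), and the call held under all 15 alternatives. Reticular cells went the other way, with 46.3 and 49.9 CPM in mutants and 62.5 and 59.5 CPM in controls (−0.32, SE 0.0777, adjusted p = 0.0115). That call was lost under DESeq2 and without control replicate 1. ECs had 68.2 and 63.8 against 64.5 and 64.4 CPM and overlapped (0.03, adjusted p = 0.774), and mural cells had 56.8 and 59.0 against 46.1 and 45.2 CPM without passing (0.32, adjusted p = 0.0932), except with the strict gate (0.46, adjusted p = 0.0284). In OBs both mutant libraries lay below both controls, at 40.4 and 40.9 against 50.005 and 48.8 CPM (−0.18, adjusted p = 0.384), and the difference missed the threshold.

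The difference of the Sav1 effect between types was itself called for 6 of 10 pairs. The share of all genes called in these tests was 11.7% for ECs against reticular cells, 13.6% against OBs, 21.5% against CHOs and 14.3% against mural cells, 5.01%, 13.2% and 10.3% for reticular cells against OBs, CHOs and mural cells, 8.59% and 9.81% for OBs against CHOs and mural cells, and 15.5% for CHOs against mural cells. It was largest for reticular cells minus CHOs, at −0.77. CHOs also differed from OBs (OBs minus CHOs −0.71, adjusted p = 4.91e-04) and from ECs (ECs minus CHOs −0.40, adjusted p = 0.00170). The increase in cartilage was larger in hypertrophic-like CHOs, which had 48.7 and 50.6 CPM in mutants against 33.7 and 33.0 CPM in controls (0.57, SE 0.0598, adjusted p = 2.23e-05). The other CHOs had 52.4 and 49.4 against 47.9 and 46.8 CPM (0.11, adjusted p = 0.443), and the effects differed by 0.47 (adjusted p = 0.0232) in a test that called 4.99% of genes.

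**Figure D3:**
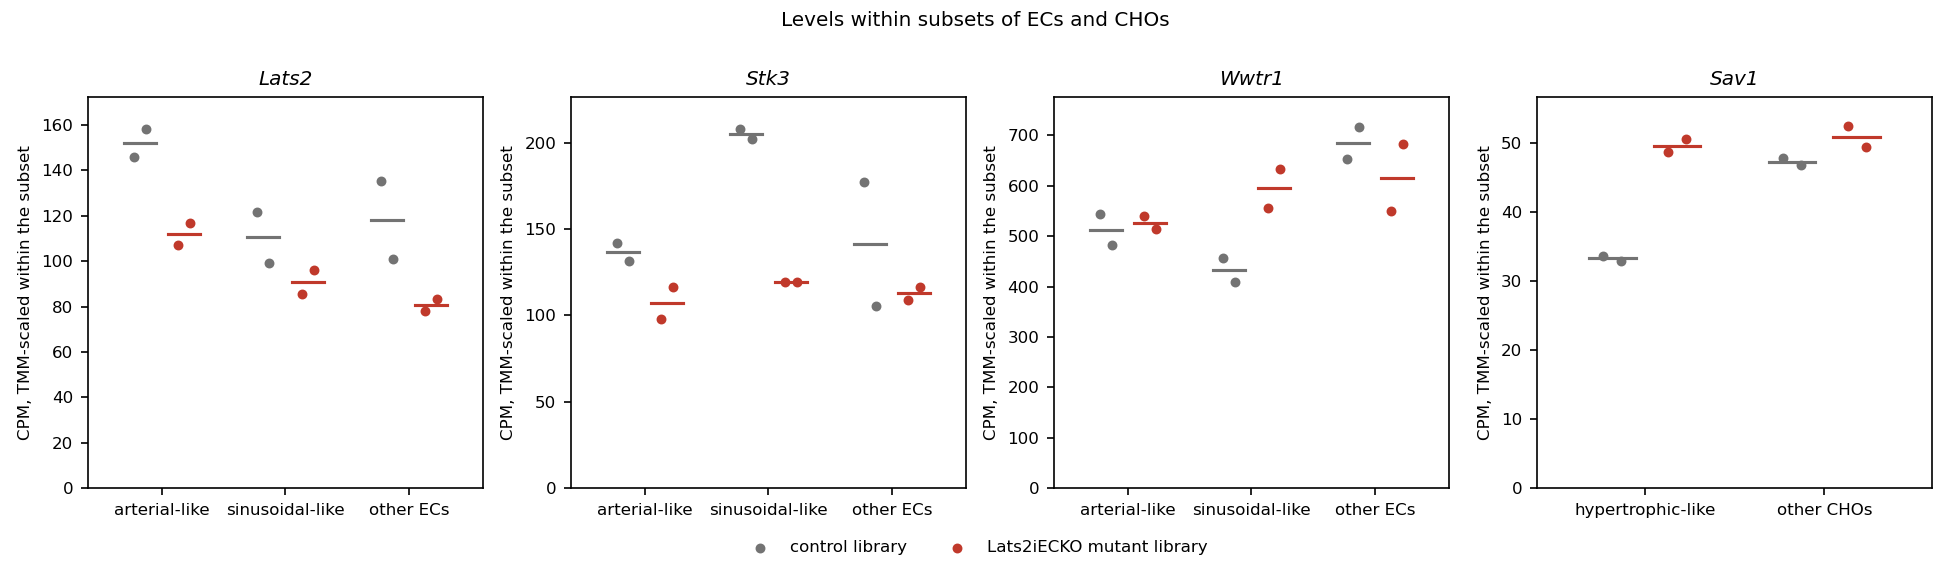
Levels (CPM, TMM-scaled within each subset, axes from 0) of members in subsets of ECs and CHOs, with 1 point per library and a bar at the mean of 2 libraries. Stk3 in sinusoidal-like ECs is at 119 CPM in both mutant libraries and above 200 CPM in both control libraries, and Sav1 is higher in mutants in hypertrophic-like CHOs.

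Over all subsets, arterial-like ECs had 1 member called (Lats2, lower; 18.7% of all genes called), and sinusoidal-like ECs had 3 (Stk3 and Stk4 lower, Wwtr1 higher; 26.0%). Hypertrophic-like CHOs had 7 called (45.2%). Reticular cells with osteolineage markers had 1 (Wwtr1, higher; 12.7%), and the other reticular cells had 3 (Sav1 and Yap1 lower, Wwtr1 higher; 18.4%). ECs of neither subset had 0 (9.07%) and other CHOs 0 (15.1%) with edgeR and 0 each with DESeq2, and 1 and 3 members there had an unadjusted p under 0.05. DESeq2 called fewer members in the subsets, with 0 in arterial-like ECs, 1 lower and 1 higher in sinusoidal-like ECs, 3 lower and 1 higher in hypertrophic-like CHOs, and 0 in either group of reticular cells. For DESeq2 and for the unadjusted p, no share of all genes is given.

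Mob1a and Mob1b encode the coactivators of the LATS kinases. Mob1a was lower in reticular cells, at 37.1 and 37.3 against 45.7 and 44.3 CPM (−0.25, SE 0.0840, adjusted p = 0.0483), but this call was lost under 8 of 15 alternatives, including the omission of any 1 library. In CHOs it stood at 28.6 and 30.9 against 33.8 and 33.5 CPM (−0.20, adjusted p = 0.0311), a call lost under DESeq2 and without mutant replicate 1, control replicate 1 or control replicate 2. OBs had 34.1 and 29.6 against 46.1 and 42.0 CPM without passing (−0.38, adjusted p = 0.105), and ECs gave −0.10 (adjusted p = 0.391). Mural cells had 42.0 and 45.5 against 44.9 and 45.8 CPM (−0.07, adjusted p = 0.766), which overlapped.

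In the mural gate Mob1b had 33.7 and 33.3 CPM in mutants and 47.3 and 48.2 CPM in controls (−0.53, SE 0.150, adjusted p = 0.0119). DESeq2 alone did not make this call among 15 alternatives, and the value was −1.12 with the loose gate. Mutant mural sums held more reticular, fibroblast and leukocyte markers, as given above, and mural cells were not split into subsets. The part of this in the mural values, those of Nf2 and Rassf3 below among them, was not tested. In CHOs Mob1b had 18.5 and 18.9 against 25.7 and 21.0 CPM (−0.33, SE 0.0979, adjusted p = 0.0226). In the barcodes without cells, Mob1b stood at 40.7 and 31.3 CPM in mutant libraries and at 74.3 and 76.8 CPM in controls, so its free RNA moved in the same direction. With free RNA subtracted, Mob1b in CHOs changed by −0.26 (adjusted p = 0.0710), and without control replicate 1 by −0.19 (adjusted p = 0.143). DESeq2 (adjusted p = 0.0809) and the fit without mutant replicate 1 (adjusted p = 0.0567) did not make the call either. With only the limits of 1000 UMIs and 800 features it changed by −1.25. ECs had 34.7 and 30.4 against 43.1 and 33.6 CPM (−0.24, adjusted p = 0.177) and overlapped, and this value was −0.41 (adjusted p = 0.0160) without control replicate 2 and −0.07 without control replicate 1. Reticular cells had 24.3 and 25.9 against 37.0 and 27.0 CPM (−0.33, adjusted p = 0.138) and OBs 20.8 and 20.02 against 28.0 and 27.4 CPM (−0.35, adjusted p = 0.190), without overlap and without passing. The reticular value passed without control replicate 2 (−0.54, adjusted p = 5.94e-04) and was −0.08 without control replicate 1.

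Nf2, the merlin gene, was lower in CHOs, at 22.4 and 22.6 against 27.6 and 25.8 CPM (−0.26, SE 0.0665, adjusted p = 0.0120; lost under DESeq2 and without control replicate 1). In mural cells it had 28.9 and 25.7 against 43.0 and 32.5 CPM (−0.50, SE 0.181, adjusted p = 0.0477), and 7 of 15 alternatives lost the call, among them the fits without mutant replicate 2 (−0.41, adjusted p = 0.166) and without control replicate 1 (−0.28, adjusted p = 0.445). OBs had 23.4 and 20.9 against 33.6 and 33.0 CPM, well apart, yet just above the threshold (−0.50, SE 0.142, adjusted p = 0.0523), and they passed without mutant replicate 1 (−0.58, adjusted p = 0.0497) and under 3 of the other alternatives. ECs had 30.3 and 35.3 against 43.8 and 31.5 CPM, which overlapped (−0.19, adjusted p = 0.349) and passed without control replicate 2 (−0.41, adjusted p = 0.0147), while without control replicate 1 the value was 0.04. Reticular cells had 26.2 and 30.1 against 33.8 and 32.8 CPM (−0.21, adjusted p = 0.143) and did not pass, with −0.32 without mutant replicate 2 and −0.14 without mutant replicate 1.

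The mRNA of the coactivator gene Yap1 was called in 1 cell type. ECs had 50.5 and 62.1 CPM in mutants and 51.0 and 57.1 CPM in controls, which overlapped (0.07, adjusted p = 0.688). CHOs alone passed, at 54.5 and 54.8 against 59.6 and 58.7 CPM (−0.13, SE 0.0465, adjusted p = 0.0480), and 10 of 15 alternatives, among them the omission of each of the 4 libraries, lost that call. Reticular cells had 49.8 and 51.5 against 59.7 and 58.9 CPM (−0.20, adjusted p = 0.0651) and mural cells 50.3 and 47.7 against 60.0 and 60.9 CPM (−0.33, adjusted p = 0.0793), without passing. The reticular value passed with the loose gate (adjusted p = 0.0487), the strict gate (adjusted p = 0.0491) and free RNA subtracted (adjusted p = 0.0436), and the mural value with the 20% of cells filter (adjusted p = 0.0372). OBs had 61.9 and 49.1 against 57.2 and 56.9 CPM (0.04, adjusted p = 0.905), which overlapped.

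Wwtr1, which encodes TAZ, was the one member higher in ECs. It rose from 429 and 389 CPM in controls to 460 and 513 CPM in mutants (0.25, SE 0.0747, adjusted p = 0.0265), with no overlap. Without mutant replicate 2 it was 0.17 (adjusted p = 0.169), and without control replicate 2 it was 0.18 (adjusted p = 0.113). Correction for gene span gave 0.47 (adjusted p = 4.98e-04). Sinusoidal-like ECs had 556 and 634 against 456 and 410 CPM (0.46, SE 0.105, adjusted p = 0.0108; without control replicate 2 0.38, adjusted p = 0.0724), and arterial-like ECs 539 and 514 against 544 and 482 CPM (0.04, adjusted p = 0.793), but the difference between them did not pass (−0.40, adjusted p = 0.134).

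Reticular cells also had more Wwtr1, at 112 and 119 against 98.7 and 93.8 CPM (0.28, SE 0.0651, adjusted p = 0.00762; lost under DESeq2, without the gene filter, without control replicate 2 and with the strict gate). CHOs had less, at 350.1 and 357 CPM in mutants and 408 and 402 CPM in controls (−0.21, SE 0.0449, adjusted p = 0.00489), held under all 15 alternatives, with −0.13 after correction for gene span. The effect in CHOs differed from that in ECs by 0.45 (ECs minus CHOs, adjusted p = 0.00333), from that in reticular cells by 0.46 (reticular minus CHOs, adjusted p = 0.00644) and from that in mural cells by −0.43 (CHOs minus mural cells, adjusted p = 0.0170). In the last 2 types mutants lay above controls without passing, with 169.8 and 181 against 161 and 165 CPM (0.21, adjusted p = 0.121) in OBs and 151 and 176 against 142 and 136 CPM (0.21, adjusted p = 0.142) in mural cells. The OB value passed with the 20% of cells filter (0.25, adjusted p = 0.0486) and the mural value after correction for gene span (0.35, adjusted p = 0.0144), and the latter was 0.33 without mutant replicate 1 and 0.10 without mutant replicate 2.

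In control libraries the members differed in where they were most abundant. Lats2 was highest in ECs (106 ± 7.88 CPM, SD, n = 2), followed by reticular cells (75.5 ± 0.537), OBs (62.8 ± 3.01), mural cells (58.0 ± 1.94) and CHOs (46.4 ± 0.609). Each step of that order passed the test between the 2 types except OBs and mural cells (adjusted p = 0.506), and the level spanned 2.28-fold. Stk3 was also highest in ECs (149 ± 7.69 CPM), then in reticular cells (106 ± 3.89), OBs, CHOs and mural cells (69.5), with OBs and CHOs not told apart (adjusted p = 0.141).

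Wwtr1 had the widest range, 4.25-fold. ECs (409 ± 28.0 CPM) and CHOs (405 ± 4.74) did not differ (adjusted p = 0.885), OBs (163), mural cells (139) and reticular cells (96.2) followed, and each of those steps passed. Yap1 lay between 54.1 CPM in ECs and 60.4 CPM in mural cells, a 1.12-fold range in which no pair of types differed, but this narrow range rests on the scaling: without TMM factors Yap1 ran from 38.3 CPM in OBs to 74.0 CPM in reticular cells. Sav1 was highest in ECs (64.5) and reticular cells (61.0), which did not differ (adjusted p = 0.273), and lower in OBs, mural cells and CHOs (41.3). Among these no neighbours differed, but OBs stood above CHOs (log2 difference 0.26, adjusted p = 0.00122).

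Stk4 was highest in reticular cells (39.5 CPM), then in ECs (30.7), and did not differ between neighbours among CHOs, OBs and mural cells (21.2). Mob1a led in ECs (60.0), and mural cells, reticular cells and OBs did not differ from each other but stood above CHOs (33.6). Mob1b was at 47.8 CPM in mural cells and 38.4 CPM in ECs, which did not differ (adjusted p = 0.0759), and lowest in CHOs (23.3). Nf2 was lowest in CHOs (26.7) with no other neighbours apart. Lats1 was highest in CHOs (39.9), next to mural cells (34.2) from which it did not differ (adjusted p = 0.177). Differences of level between types are common in these data: ECs differed in 61.4% of genes from reticular cells, 64.9% from OBs, 70.8% from CHOs and 48.8% from mural cells, and the other pairs in 61.2% (reticular, OBs), 70.9% (reticular, CHOs), 43.8% (reticular, mural), 61.3% (OBs, CHOs), 44.5% (OBs, mural) and 50.2% (CHOs, mural). These orders hold on the TMM scale; without scaling factors, OBs ranked last for every member, and Lats1 was highest in reticular cells (37.4 CPM), with CHOs (36.7 CPM) behind mural cells (37.3 CPM). Levels of different genes were not compared, since introns and gene length enter the counts.

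Promoter sequences show where members differ in a sequence letter pattern known from TEAD factors. The motif GGAATG, or CATTCC on the other strand, was searched on both strands of the 250 bases before the transcription start in the RefSeq promoter table (GRCm38.p6, an earlier build than that of the counts). It occurred in 12.6% of 32851 promoters. The table held 12 promoters of 9 of the 10 members (not Stk3), and 4 genes had a match, namely Sav1, Mob1a, Yap1 and Wwtr1. That count is per gene and the share is per promoter, so they are not on the same scale. Lats2, Nf2 and Wwtr1 had 2 promoters each, and the 2 windows of Wwtr1 overlap and share the motif. For Lats2 and Wwtr1 only promoter 1 is shown. The promoters of the gene deleted here, of the member higher in mutant ECs, of the member higher in mutant CHOs and of the YAP1/TAZ readout Ccn1 are shown 5′ to 3′ on the gene's strand, with the motif in capitals.
Lats2, chr14:57746124-57746373, minus strand: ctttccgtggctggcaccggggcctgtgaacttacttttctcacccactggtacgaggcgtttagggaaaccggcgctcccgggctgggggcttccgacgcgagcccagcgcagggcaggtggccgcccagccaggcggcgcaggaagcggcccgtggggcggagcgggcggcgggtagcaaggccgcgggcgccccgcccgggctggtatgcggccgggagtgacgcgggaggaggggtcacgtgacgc
Wwtr1, chr3:57575911-57576160, minus strand: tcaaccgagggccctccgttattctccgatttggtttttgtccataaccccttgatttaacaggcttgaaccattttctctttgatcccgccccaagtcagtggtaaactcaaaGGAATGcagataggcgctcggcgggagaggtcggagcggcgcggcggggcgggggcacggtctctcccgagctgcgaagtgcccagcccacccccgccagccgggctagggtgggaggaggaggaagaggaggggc
Sav1, chr12:69987003-69987252, minus strand: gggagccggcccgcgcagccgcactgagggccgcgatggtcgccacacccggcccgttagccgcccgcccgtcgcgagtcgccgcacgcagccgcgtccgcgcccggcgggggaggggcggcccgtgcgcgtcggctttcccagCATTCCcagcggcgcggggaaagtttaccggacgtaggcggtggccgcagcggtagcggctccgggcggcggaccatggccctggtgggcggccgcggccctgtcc
Ccn1, chr3:145649986-145650235, minus strand: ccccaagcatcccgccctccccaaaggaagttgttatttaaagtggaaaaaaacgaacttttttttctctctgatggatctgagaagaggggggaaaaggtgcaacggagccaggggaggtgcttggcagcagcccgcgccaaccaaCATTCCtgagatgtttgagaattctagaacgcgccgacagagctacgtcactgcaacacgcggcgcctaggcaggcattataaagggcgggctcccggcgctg
The match began 136 bases before the start in Wwtr1, 106 in Sav1 and 103 in Ccn1, and no match lay in this window of Lats2. A match is a letter pattern and was not set beside any binding data.

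Genes around the core were read from 3 lists. Their medians and the shares of all genes beside them were not matched for gene span. Of the YAP1/TAZ target genes, 19 of 22 were tested in ECs, and 13 were higher and 2 lower, with a median log2 fold change of 0.77, where 17.9% of all genes tested were called higher and 16.6% lower. Ccn1, an early target that encodes a matricellular protein, stood at 323 and 302 CPM in mutant ECs against 59.3 and 77.1 CPM (2.20, SE 0.113, adjusted p = 2.13e-06). Ccn2, its relative CTGF, had 316 and 348 against 63.2 and 72.4 CPM (2.29, SE 0.0902, adjusted p = 7.75e-07). Both were higher in the same cells in which Yap1 mRNA did not pass. Ankrd1 had 19.97 and 4.02 CPM in mutant ECs and 0.144 and 0 CPM in controls. Its controls lay at the floor and its 2 mutant EC libraries lay far apart. Axl (−0.60) and Asap1 (−0.54) were the targets called lower there.

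The target list was counted in the same way in the other types. Reticular cells had 8 of 20 targets higher and 7 lower (median −0.08; background 12.4% and 10.5%). OBs had 7 of 18 higher and 0 lower (median 0.35; background 6.86% and 3.3%). CHOs had 7 of 21 higher and 4 lower (median 0.11; background 21.2% and 21.0%), and mural cells 6 of 19 higher and 3 lower (median −0.00; background 15.7% and 13.7%). Ccn2 was called higher in each, with 0.92 in reticular cells, 1.09 in OBs, 0.57 in CHOs and 1.07 in mural cells. Ccn1 was higher in reticular cells (0.84) and OBs (0.51), and did not pass in CHOs (0.11) or mural cells (0.02). In reticular cells Gadd45a, a growth arrest gene, had 48.6 and 40.1 against 19.9 and 18.0 CPM (1.24), while Igfbp3 had 83.6 and 95.4 against 140.4 and 139.96 CPM (−0.62). In OBs Gadd45a had 24.6 and 19.1 against 4.73 and 4.86 CPM (2.26).

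Other Hippo regulators were a list of 30 further kinases, scaffolds, cadherins and RASSF genes. In ECs 13 of 27 were lower and 5 higher (median −0.23), where 16.6% of all genes were called lower and 17.9% higher. All genes in the longest of 4 span classes had a median of −0.22 in ECs. The part of gene span in this list was not tested. Map4k5, a kinase that can phosphorylate LATS in parallel to the MST kinases, went from 303 and 296 CPM in controls to 161 and 169 CPM (−0.86, SE 0.0664). Taok3 (−0.75) and the cadherin gene Fat4 (−0.56) were also lower, and Rassf2, whose product binds MST kinases, had 8.76 and 10.1 against 1.44 and 0.152 CPM (3.52, adjusted p = 6.42e-04). Reticular cells had 10 of 29 lower and 3 higher (median −0.15; background 10.5% and 12.4%), with Rassf4 at 2.27 and 2.76 against 14.3 and 12.3 CPM (−2.37). CHOs had 12 of 29 lower and 8 higher (median −0.15; background 21.0% and 21.2%), mural cells 8 of 26 lower and 1 higher (median −0.25; background 13.7% and 15.7%), and OBs 0 of 27 lower and 4 higher (median −0.03; background 3.3% and 6.86%). In mural cells Rassf3 had 96.2 and 85.9 against 216 and 209 CPM (−1.25).

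The TEAD factors and partners of YAP1/TAZ, 8 genes, were mixed. In ECs 4 of 6 tested were lower and 0 higher (median −0.30; background 16.6% and 17.9%), among them Amotl1, an angiomotin that holds YAP1 in the cytoplasm, at 111 and 115 against 190 and 163 CPM (−0.64). Tead2 (−0.38) and Vgll4 (−0.32), a transcriptional cofactor that competes with YAP1 for TEAD factors, were lower as well. In reticular cells 2 of 8 were higher, Vgll3 (1.31) and Tead2 (0.58), and 1 was lower, Tead1 (−0.20), with a median of 0.04 (background 12.4% and 10.5%). In OBs, Tead3 (1.00) and Tead1 (0.44) were higher and Amotl1 (−0.40) was lower among 6 tested (median 0.08; background 6.86% and 3.3%). Of 7 tested in CHOs, 1 was higher, Tead3 (0.32), and 2 were lower, Amotl1 (−0.21) and Vgll4 (median −0.10; background 21.2% and 21.0%). Vgll4 went from 215 and 219 CPM to 137 and 136 CPM (−0.69, adjusted p = 3.20e-06). Mural cells had 3 of 8 higher and 1 lower (median 0.53; background 15.7% and 13.7%).

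**Figure D4:**
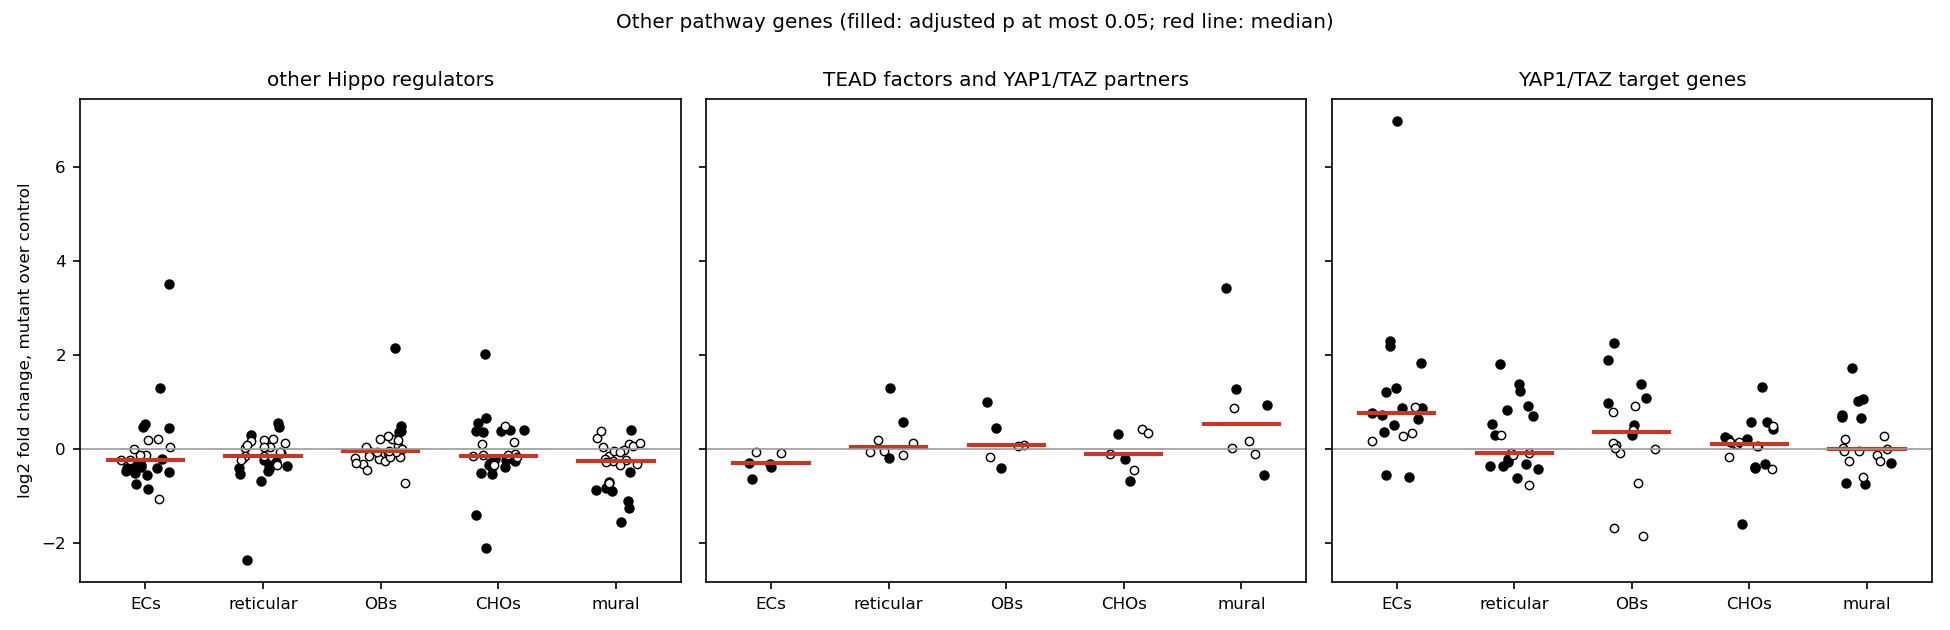
Log2 fold change of mutants over controls of each tested gene of the 3 pathway lists in the 5 cell types, with filled points for an adjusted p of 0.05 or less and a bar at the median. The target list in ECs has the highest median (0.77), with 13 of 19 genes called higher.

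Fold changes in these libraries also varied with the genomic span of the gene, and 6 of the 10 members (Lats2, Stk3, Stk4, Nf2, Yap1 and Wwtr1) are in the highest of 4 span classes of equal size. Members span 17.8 kb (Mob1a) to 304.4 kb (Stk3). In ECs the median log2 fold change of all genes was 0.16 in the class of shortest genes, then 0.12, −0.04 and −0.22 in the class of longest genes. The other types had smaller falls, from 0.09 to −0.12 in reticular cells, 0.06 to −0.09 in CHOs and 0.12 to −0.13 in mural cells, and OBs changed least (0.05 to −0.02). After the trend over span was removed, Stk3 in ECs was at −0.33 (adjusted p = 0.00804), Lats2 in ECs at −0.23 (adjusted p = 0.0535) and Wwtr1 in ECs at 0.47, and members called lower in ECs numbered 2. The share of all genes called after this correction is not given. This correction was chosen after the data were seen.

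**Figure D5:**
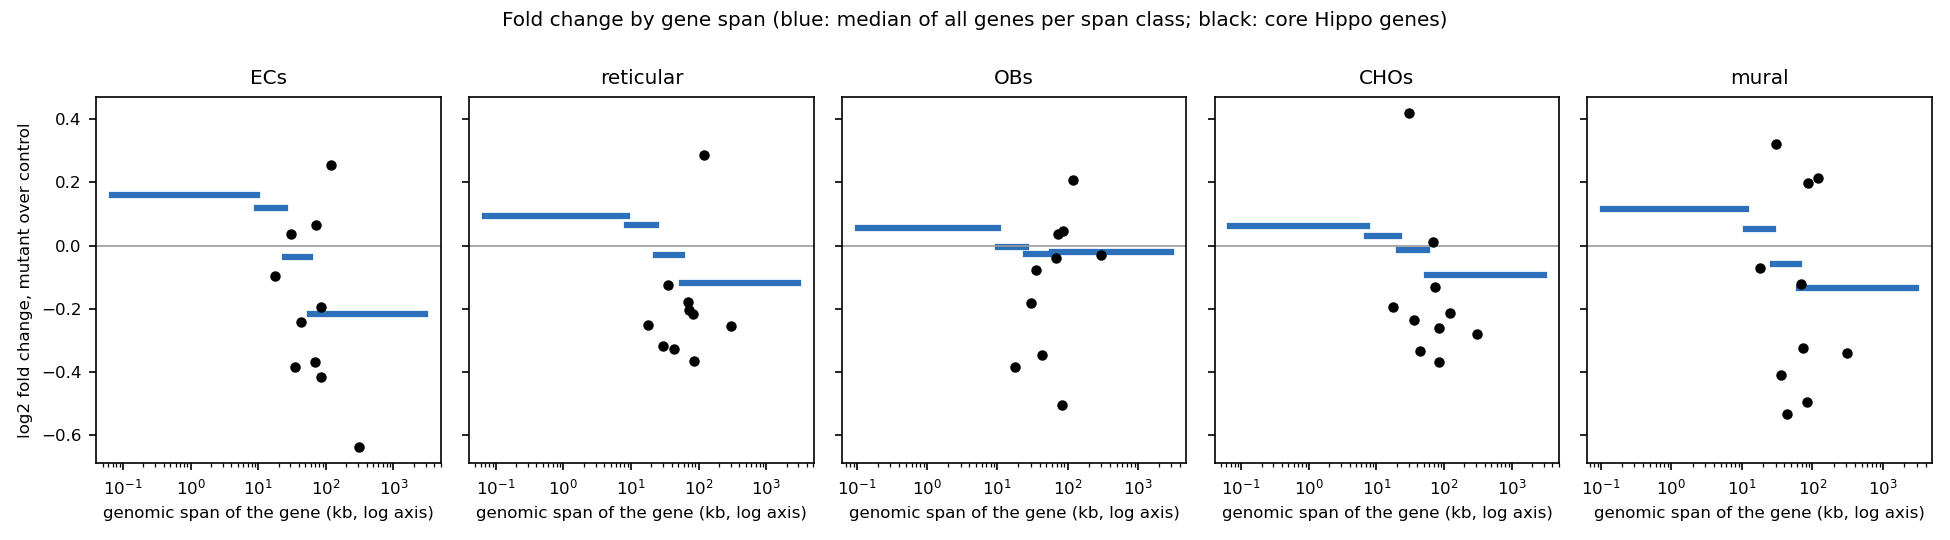
Median log2 fold change of mutants over controls over all genes tested, in 4 span classes of equal size from shortest to longest, in the 5 cell types, with the members plotted at their own span and value. In ECs the medians fall from 0.16 to −0.22, and Stk3, the longest member, lies below the median of its class.

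The genes whose level over the 20 sums was most like that of Lats2 were Fignl2 (Pearson r = 0.976), Prkce (0.956), Enox2, Vps13d and Macf1, among 10703 genes on log2(CPM + 1). For Wwtr1 they were Hspg2 (0.974), Chd1, Adss, Scarb1 and Ubtd1, and for Yap1, whose level varied little, Zfp808 (0.806), Gm12989 (0.770), Foxk2, Dus4l and Fam185a. The 20 sums share 4 libraries and 5 types, so these values describe the ranking only.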

How the data were processed

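The data are 4 10x Chromium 3′ scRNA-seq libraries, 2 of mutants and 2 of controls. The authors trimmed reads with cutadapt 3.5 and aligned and counted UMIs with STARsolo 2.7.10a over exons and introns on mm39 with a GENCODE annotation extended by CreERT2 and reporter sequences, and deposited the resulting expected counts for every barcode without a filter, reads of several genes being split by expectation maximization. Tools and build are as the submitters' processing notes and methods give them.

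Barcodes were kept with at least 1000 UMIs and 800 features, a mitochondrial share of up to 15%, a hemoglobin share of up to 5% and a complexity of at least 0.8. A cell was assigned to a type with at least 4 of 10 markers and 2 more than every other of 8 lists. No doublet caller was run; barcodes with markers of several types fell by that margin. The deposited counts were summed per library and type, rounded, and compared with edgeR 4.0.16 (TMM, filterByExpr, quasi-likelihood test, Benjamini-Hochberg over all genes tested; R 4.3.3). Differences between types came from 1 fit of 20 sums with the library as a block. Alternatives were DESeq2 1.42.0, RLE scaling, no gene filter or one of a count in 20% of cells of either genotype, a loose gate (3 markers, 1 more) and a strict gate (5 markers, 3 more), other barcode filters (1000 UMIs and 800 features only, or 2000 UMIs and 10% mitochondrial UMIs), subtraction of free RNA, the replicate number as a block and the omission of each library; correction for gene span and the sum of Lats2 and Gm49361 were added after the data were seen. Sums were handled with Python 3.11.15, numpy 2.4.6, pandas 2.3.3 and scipy 1.17.1, and limma 3.58.1 was loaded with edgeR. Sums were also simulated with 100 genes changed by 1 and 100 changed by 0.5 (log2), at a fixed dispersion set in advance. The EC test recovered 86% and 17% of them among 13952 genes, and the mural test 66% and 8% among 11338. In the data a larger share of genes was called, so these rates do not measure how often changes of members were missed. The other types were not simulated on their own. Gene positions were read from GENCODE M39 (GRCm39).

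Members and gene lists were chosen with earlier results of these data known. All members are described in every type; of the lists, Ccn1, Ccn2 and the up to 3 largest changes per type and direction among called genes without overlap could be named, and not all are.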

Additional observations from a re-analysis of the deposited data

Results flagged for a closer look

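For 3 members of the kinase cascade and for Wwtr1, the effect of genotype differed between cell types by a test of the difference itself (edgeR, library as block). All values here are differences of log2 fold changes, the first type minus the second. The tests called 5.01% to 21.5% of all genes by pair of types. They called 17.1% for ECs against the mean of the other 4 types and 4.99% for the CHO subsets. Pairs were tested under the main setting only. The difference of Stk3 from the other 4 types missed the threshold without mutant replicate 2, as given above. Stk3 differed between ECs and the mean of the other 4 types by −0.39, between ECs and OBs by −0.51, between ECs and reticular cells by −0.36 and between ECs and CHOs by −0.38. Lats2 differed between ECs and CHOs by −0.40.

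Sav1 gave the most such differences. They were −0.77 for reticular cells minus CHOs, −0.71 for OBs minus CHOs, −0.68 for reticular minus mural cells, −0.62 for OBs minus mural cells, −0.40 for ECs minus CHOs and 0.37 for ECs minus reticular cells. Hypertrophic-like CHOs differed from the other CHOs by 0.47. For Wwtr1 the differences were 0.46 for reticular cells minus CHOs, 0.45 for ECs minus CHOs and −0.43 for CHOs minus mural cells.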

How the results depend on the processing

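Members called lower in ECs (4) numbered 2 with DESeq2 and 2 after correction for gene span, and 2 to 5 with 1 library left out. Those lower in reticular cells (4) numbered 0 with DESeq2, 1 without the gene filter, 2 with 2000 UMIs and 10% mitochondrial UMIs as limits, 2 after span correction and 0 to 4 with 1 library left out. Those lower in CHOs (8) numbered 3 with DESeq2 and 4 to 7 with 1 library left out. Those lower in mural cells (2) numbered 0 with DESeq2, 4 with the 20% of cells filter, and 1 each without the gene filter, with the 2000 UMI limits, with free RNA subtracted and after span correction. Those lower in OBs (0) numbered 1 each without the gene filter, with the 1000 UMI and 800 feature limits only and with free RNA subtracted, and 0 to 1 with 1 library left out. Members called higher numbered 0 to 1 in ECs and 0 to 1 in reticular cells with 1 library left out, 0 in reticular cells with DESeq2, without the gene filter and with the strict gate, 1 in OBs with the 20% filter, and 1 in mural cells with the strict gate and after span correction. Members whose effect differed in ECs (1) numbered 2 with RLE scaling, the 20% filter and the strict gate, and 0 to 2 with 1 library left out. Lats2 in ECs gave −0.23 after span correction and −0.45 to −0.30 with 1 library left out; without control replicate 1 its adjusted p was 0.0508. Its difference from the other types passed with RLE scaling (−0.28), the 20% filter (−0.31) and the sum with Gm49361 (−0.30), and lay from −0.34 to −0.20 with 1 library left out. YAP1/TAZ targets lower in ECs (2) numbered 1 with DESeq2, the 20% filter and the loose gate, and 1 to 2 with 1 library left out. The cause of these shifts was not tested. No share of all genes under the same setting is given beside these counts, so they are not set against a background.

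The values that turned sign were all uncalled. With 1 library left out they ranged, in OBs, from −0.18 to 0.034 for Lats1, −0.24 to 0.16 for Lats2, −0.18 to 0.069 for Stk3, −0.011 to 0.10 for Stk4 and −0.12 to 0.20 for Yap1. In ECs they ranged from −0.011 to 0.083 for Sav1, −0.41 to 0.043 for Nf2 and −0.10 to 0.20 for Yap1, in arterial-like ECs from −0.050 to 0.13 for Wwtr1, and in ECs of neither subset from −0.65 to 0.088 for Stk3 and −0.31 to 0.012 for Wwtr1. Lats2 in CHOs ranged from −0.040 to 0.065, and Sav1 in ECs minus other types from −0.076 to 0.069. Without the gene filter, Lats2 in CHOs was −0.00036, Stk4 in OBs −0.028, Yap1 in OBs −0.038 and Sav1 in ECs minus other types 0.011. With the 2000 UMI limits, Lats2 in OBs was 0.016, Stk4 in OBs −0.046, Yap1 in OBs −0.089 and Mob1a in mural cells 0.14. With the loose gate, Lats2 in CHOs was −0.0097, Yap1 in OBs −0.074, Stk4 in mural cells −0.16 and Mob1a in mural cells 0.012. With the strict gate, Lats2 in CHOs was −0.020 and Sav1 in ECs minus other types 0.026. Stk3 in OBs was 0.0099 with the 20% filter, Lats2 in OBs 0.16 summed with Gm49361, Wwtr1 in ECs of neither subset 0.088 after span correction, and Sav1 in other CHOs −0.00014 with the 1000 UMI and 800 feature limits only.

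The replicate numbers did not pair the samples: over the genes tested, deviations of same-numbered libraries correlated at 0.0842 in ECs, −0.0224 in reticular cells, 0.0156 in OBs, 0.0301 in CHOs and −0.0319 in mural cells. With the replicate number as a block, members called lower numbered 4, 3, 0, 7 and 2 in these types and those higher 1, 1, 0, 1 and 0. The share of all genes called with this block is not given.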

Other observations

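Erythroid-gated barcodes, which entered no comparison above, also held the members. With only the limits of 1000 UMIs and 800 features, and so no limit on hemoglobin, there were 338 and 375 in mutant libraries and 683 and 653 in control libraries, against 157, 163, 421 and 356 with all barcode limits, and the values below are from the former. Stk3 stood there at 29.3 and 28.8 CPM in mutants and at 55.2 and 50.8 CPM in controls, Stk4 at 24.9 and 21.9 against 43.9 and 40.3 CPM, and Sav1 at 39.8 and 38.9 against 52.6 and 44.3 CPM. Lats2 was at 12.9 and 12.5 against 15.3 and 19.8 CPM, and Lats1 at 14.2 and 13.5 against 23.2 and 17.7 CPM. Mob1a had 30.3 and 27.7 against 44.4 and 38.1 CPM, and Mob1b 16.2 and 19.4 against 35.3 and 20.1 CPM. Nf2 had 17.2 and 20.8 against 33.8 and 30.6 CPM. Wwtr1 went the other way, with 5.06 and 6.26 against 1.23 and 4.28 CPM. Yap1 was at 2.36 and 1.76 CPM in mutants and 2.65 and 1.37 CPM in controls, which overlapped. These values were not tested.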
